A study of Mus musculus with 17 samples.

Results

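The genes described here encode the DNA damage checkpoint and the p53 family: the kinases Atm, Atr, Chek1 and Chek2, the transcription factors Trp53, Trp63 and Trp73, the p53 ubiquitin ligase Mdm2, and the p53 target genes Cdkn1a and Bax. They were chosen by symbol, and all 10 were found among the 23980 genes that each of the 2 expression tables listed. PolyA(+) RNA was sequenced from male germ cells and testes of C57BL6/J mice. The animals carried a knockout (KO) of Pld6 or of Dnmt3l, were wild type (WT) or, in newborn testes alone, lacked both genes (DKO), so that the transcriptome could be compared after losing either a mitochondrial enzyme of piRNA biogenesis (Pld6) or a cofactor of de novo DNA methylation (Dnmt3l). Leptotene/zygotene (L/Z) spermatocytes, cells early in meiotic prophase, were purified by fluorescence-activated cell sorting at 3 to 4 weeks after birth and gave 6 libraries, 2 for each of the genotypes WT, Pld6 KO and Dnmt3l KO. Whole testes on the day of birth (postnatal day 0, P0) gave 11 libraries, of which 2 were WT, 4 Pld6 KO, 3 DKO and 2 Dnmt3l KO. The P0 libraries hold RNA of all testicular cells, so that fewer cells of a type and less RNA per cell cannot be told apart there. All groups shared the strain and no group carried a transgene or received a treatment according to the labels. Replicates were labelled biological, but the animals behind each library were not given.

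In the DNA damage response, ATM is activated by double-strand breaks and ATR by single-stranded DNA, and they phosphorylate CHK2 and CHK1, respectively, and p53. Stabilized p53 turns on genes that stop the cell cycle, such as Cdkn1a, or start apoptosis, such as Bax, and also Mdm2, whose product returns p53 to degradation. Much of this control acts on the proteins, which were not measured. Spermatocytes at the L/Z stage make programmed double-strand breaks for recombination, in which ATM limits the number of breaks and ATR monitors chromosome axes that have not synapsed. In oocytes, CHK2 acts on p53 and on the p63 isoform TAp63 to remove damaged cells. Mutant spermatocytes in which retrotransposons are derepressed are known to die in meiosis, and the level of these genes in such cells is the question here.

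Each library was checked before the members were read. Library totals were 5194238 to 14578341 estimated counts at L/Z and 9900346 to 23498968 at P0. Pld6 had 0 counts in both Pld6 KO libraries at L/Z and 0 to 2 in Pld6 KO and DKO libraries at P0, against 40 to 57 in WT at P0, and Dnmt3l had 0 to 3 counts in every library that lacked the gene. In L/Z libraries, all 10 L/Z spermatocyte markers were detected in each group, while their summed level in CPM, which are counts scaled to the TMM-adjusted library size, was 7222 and 6402 in Dnmt3l KO, against 1911 and 3446 in WT and 2419 and 3889 in Pld6 KO. Summed Sertoli cell markers ran the other way, at 638 and 415 CPM in WT and 393 and 120.2 CPM in Dnmt3l KO, and all 10 spermatogonia markers together were at 2066 and 1800.2 CPM in WT, 1710.1 and 1680.4 CPM for Pld6 KO, and 861 and 1432 CPM for Dnmt3l KO. Of 10 late germ cell markers, 7 were detected in WT, 8 in Pld6 KO and 7 in Dnmt3l KO, with sums of 49.4 and 71.7 CPM, 19.6 and 35.4 CPM, and 22.2 and 17.6 CPM, and Prm2 and Catsper1 were at 0 in all 6 libraries. Of the other somatic sums, Leydig cell markers were also lower in Dnmt3l KO, at 7.2 and 6.73 CPM against 19.6 and 14.4 CPM in WT. Macrophage markers overlapped, at 39.6 and 91.2 CPM in Dnmt3l KO and 43.8 and 9.27 CPM in WT. Peritubular myoid markers did so too, at 58.6 and 170.5 CPM against 173 and 54.5 CPM, as did endothelial and blood markers. The part of these markers in the L/Z results was not tested. The 45S pre-ribosomal RNA was abundant in 2 L/Z libraries, with 8.273% of the counts of WT replicate 1 and 8.063% of those of Pld6 KO replicate 1, and took at most 0.301% in the others. At P0 it took 0.104% to 4.431% of the counts in 7 libraries and was not quantified in the 4 Pld6 KO libraries, where the table marks it as having too many fragments. At P0, Pld6 KO replicate 1 had a summed prospermatogonia marker level of 132 CPM, against 248 to 544 CPM in the other 10 libraries, and 6 counts of Dnmt3l, against 30 to 145 in the other 5 libraries that carry that gene. Dnmt3l KO replicate 1 at P0 had a summed late germ cell marker level of 84.4 CPM, against 4.59 to 15.6 CPM elsewhere.

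Promoter sequences of Trp53 and of its textbook target genes are shown because those targets are read below as the output of the pathway. RefSeq (GRCm38.p6) gave 11 windows for 9 of the members, each covering the 250 bases before a transcript start, and no window for Trp63. Letters that match the p53 half-site consensus, a palindrome of 10 bases that reads the same on both strands, were found in 4 of these windows, belonging to Trp53, Cdkn1a, Mdm2 and Bax. Of all 32851 windows in the reference, 7.13% held such a match. The half-sites are in capitals, and each stretch is written 5′ to 3′ on the strand of the gene.
Trp53 (chr11:69580249-69580328, plus strand): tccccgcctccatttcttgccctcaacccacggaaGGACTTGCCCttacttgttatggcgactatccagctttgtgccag
Cdkn1a (chr17:29090893-29090972, plus strand): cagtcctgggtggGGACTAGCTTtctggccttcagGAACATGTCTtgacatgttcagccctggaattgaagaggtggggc
Mdm2 (chr10:117710900-117710979, minus strand): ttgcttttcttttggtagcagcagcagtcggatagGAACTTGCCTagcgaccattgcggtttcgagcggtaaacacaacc
Bax (chr7:45467055-45467134, minus strand): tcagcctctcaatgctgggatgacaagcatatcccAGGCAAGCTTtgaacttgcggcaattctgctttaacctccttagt

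The half-sites began 75 bases before the Trp53 start, 73 and 51 bases before the upstream start of Cdkn1a, 186 bases before the Mdm2 start and 201 bases before the Bax start. Cdkn1a has another annotated start 2790 bases downstream, whose window held no match. The 6 windows of Atm, Atr, Chek1, Chek2 and Trp73 held none, which says only that the letters are not there. Binding was not measured. CpG dinucleotides in the upstream part numbered 9 at Trp53, 14 at Bax, 29 at Mdm2, and 2 and 19 at the starts of Cdkn1a, with a median of 6 over all windows.

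All 10 members are protein-coding genes, and their positions are those of RefSeq on GRCm38.p6. Of the kinases, Chek1 (36708482-36726658), Atm (53437122-53536828) and Atr (95857597-95953217) lie on chromosome 9 and Chek2 (110839800-110874140) on chromosome 5. Trp53 spans 69580348-69591873 on chromosome 11, Trp63 25683763-25892088 on chromosome 16 and Trp73 154056249-154139875 on chromosome 4. Mdm2 spans 117688875-117710758 on chromosome 10, Cdkn1a 29090979-29100722 on chromosome 17 and Bax 45461695-45466903 on chromosome 7.

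Levels were first set side by side as FPKM, in which the number of fragments is divided by the length of the transcript and the size of the library. This allows genes of different length to be compared within a stage. In WT L/Z spermatocytes, the order from the highest, with the lower and the higher of the 2 libraries, was Bax (125 and 173 FPKM), Atr (64.2 and 97.3), Mdm2 (37 and 45.2), Trp53 (35.1 and 36.1), Atm (23.9 and 27.4), Chek1 (21.5 and 23.7), Chek2 (8.64 and 11), Cdkn1a (3.41 and 3.86), Trp63 (0.167 and 0.571) and Trp73 (0.0741 and 0.13). No neighbours in this order overlapped between the 2 WT libraries, although Mdm2 and Trp53, and Atm and Chek1, were separated by less than 1 FPKM at their nearest libraries. In WT P0 testes the order was Trp53 (82 and 83.1 FPKM), Bax (48.6 and 51.8), Mdm2 (20.7 and 24.9), Chek1 (12.4 and 15.4), Atr (10.4 and 11.3), Chek2 (8.73 and 9.69), Atm (8.65 and 9.32), Cdkn1a (3.01 and 3.28), Trp63 (1.11 and 1.19) and Trp73 (0.0905 and 0.135), with Chek2 and Atm overlapping. Atr was thus at rank 2 at L/Z and at rank 5 at P0, and Trp53 at ranks 4 and 1. The stages differ in tissue, age and read type and were normalized in separate tables, so no test was made between these levels.

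**Figure D1:**
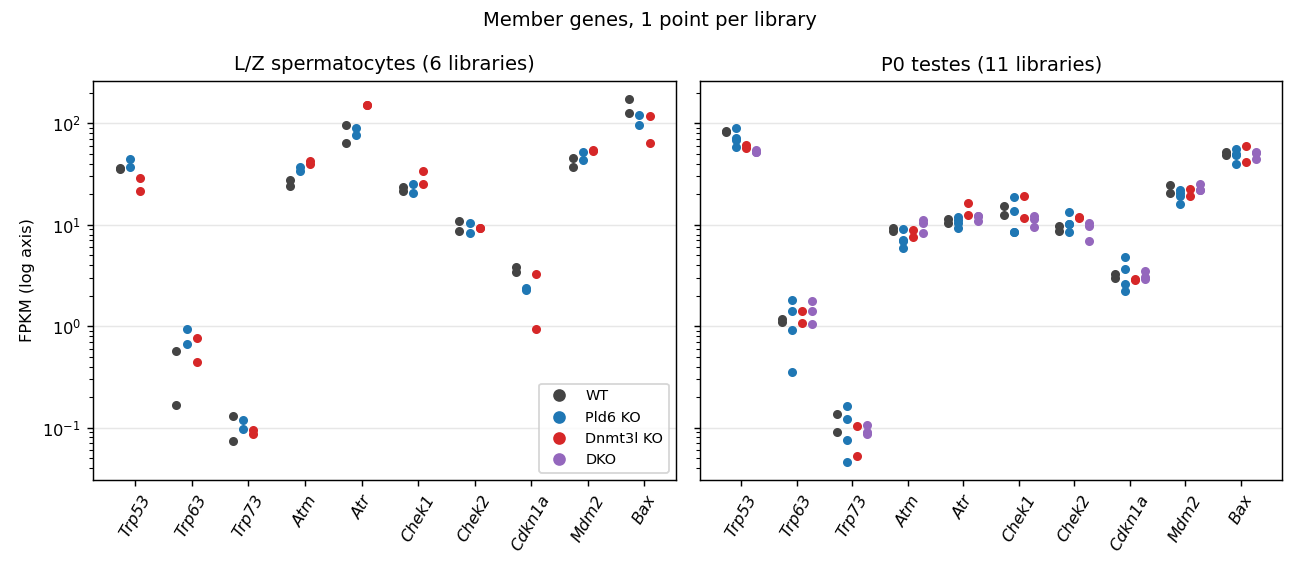
FPKM of the 10 member genes (log axis) in L/Z spermatocytes (left, 6 libraries) and P0 testes (right, 11 libraries), with 1 point per library coloured by genotype. Bax and Atr lead at L/Z, Trp53 leads in WT at P0, and Trp63 and Trp73 are the lowest members at both stages.

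Trp73 had 2 to 7 counts per library at L/Z and 2 to 12 at P0, so it did not pass the filter on low counts at either stage and was not tested. Its highest level in any library was 0.163 FPKM. The other 9 members were tested at both stages. Trp63 rested on 10 to 51 counts at L/Z and 16 to 95 at P0, and Cdkn1a on 8 to 80 and 39 to 124, which makes their fold changes the least precise. Mouse carries a processed pseudogene of Trp53, which the tables do not list, and fragments that match both copies could be counted at Trp53. The Atr locus overlaps the RefSeq gene Gm16794 over 11173 bases and 1700065D16Rik over 286 bases, and it was not stated whether counting used strand.

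No member was called in any comparison, where a call required a Benjamini-Hochberg adjusted p (false discovery rate, FDR) under 0.05 and a change over 2-fold in edgeR's quasi-likelihood test across all genes of a stage. In L/Z spermatocytes the background of called genes was 0.225% for Pld6 KO against WT, 5.47% for Dnmt3l KO against WT and 0.0477% for Dnmt3l KO against Pld6 KO. At P0 it was 0.00629% for Pld6 KO, 0.0% for Dnmt3l KO and 0.0126% for DKO, each against WT, with 0.0% for DKO against Pld6 KO, 0.0755% for DKO against Dnmt3l KO and 0.0% for the departure of DKO from the sum of the single effects, which had no fold threshold. At P0 edgeR also missed most of the deleted genes. Dnmt3l differed from WT by -5.23 in Dnmt3l KO (FDR 0.257) and -5.81 in DKO (FDR 0.244), without a call. Pld6 was not called in Pld6 KO (-5.12, FDR 0.0585) and was called in DKO (-8.70, FDR 0.0299). The lack of calls at P0 therefore says little about the members. DESeq2's Wald test and limma on FPKM called no member either. At an unadjusted p under 0.05, 3 of 9 members differed from WT in Dnmt3l KO at L/Z (Atr, Atm and Bax), where 26.7% of all genes did. The corresponding numbers were 0 of 9 in Pld6 KO at L/Z (with 9.17% of all genes), 0 of 9 in Pld6 KO at P0 (with 5.06%), 2 of 9 in Dnmt3l KO at P0 (Trp53 and Atr, with 12.9% of all genes) and 1 of 9 in DKO at P0 (Trp53, with 7.97% of all genes).

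**Figure D2:**
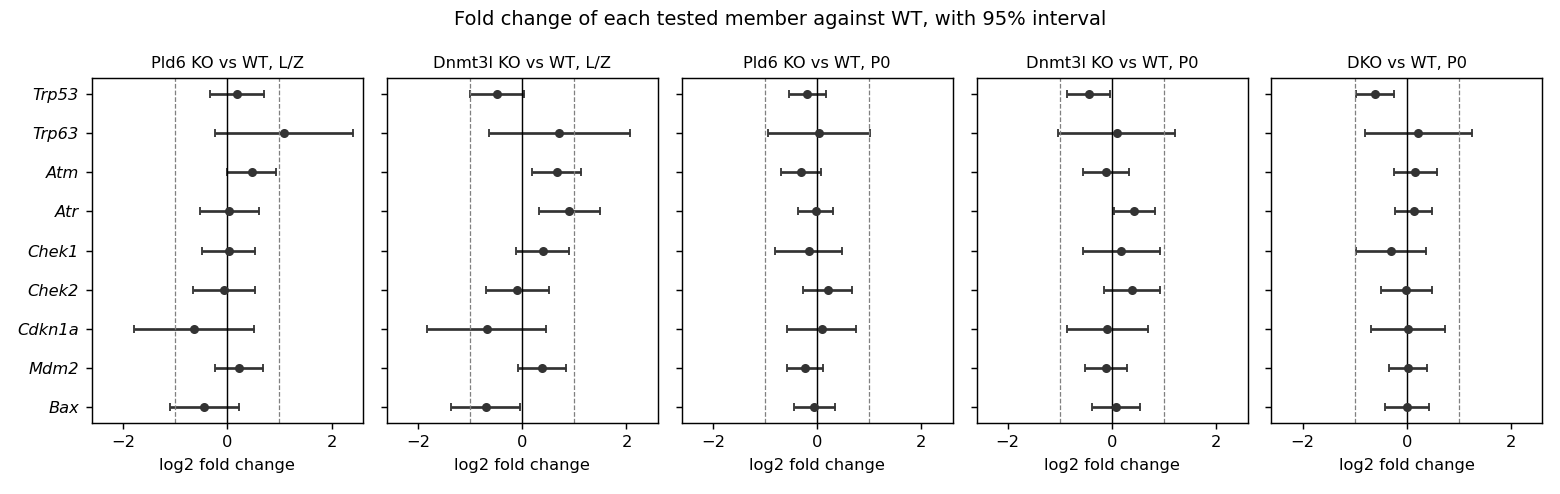
Log2 fold change of the 9 tested members in each mutant against WT, with bars for the 95% interval and dashed lines at 2-fold. At P0 all intervals but that of Trp63 lie within 2-fold, whereas at L/Z 6 of 9 (Pld6 KO) and 3 of 9 (Dnmt3l KO) do.

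The kinase genes were examined first in L/Z spermatocytes. Atr, the apical kinase for single-stranded DNA and unsynapsed axes, was at 508 and 770 CPM in WT, and 606 and 709.6 CPM in Pld6 KO, whereas Dnmt3l KO had 1178 and 1217 CPM. The group means were 639 ± 186, 658 ± 73.4 and 1197 ± 27.8 CPM (SD, n = 2 each). Both Dnmt3l KO libraries lay above every other L/Z library, and WT and Pld6 KO overlapped. The fold change of Dnmt3l KO against WT was 0.91 on the log2 scale (SE 0.263, 95% interval 0.33 to 1.48, FDR 0.0599 by edgeR), a 1.87-fold difference that missed the threshold. Against Pld6 KO it was 0.86 (SE 0.262, FDR 0.172 by edgeR), and Pld6 KO against WT gave 0.04 (95% interval -0.53 to 0.61).

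The Atr value depended on single libraries and on the processing. Without WT replicate 2 the log2 difference was 1.24 with an FDR of 0.0332 in edgeR, which was a call, and without WT replicate 1, one of the libraries rich in 45S RNA, it was 0.64 with an FDR of 0.273. DESeq2's Wald test gave 0.91 with an FDR of 0.00243, short of 2-fold. The summed L/Z spermatocyte markers given above were also highest in the 2 Dnmt3l KO libraries, and their part in the Atr value was not tested.

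Atm, the kinase that responds to double-strand breaks and limits their number in meiosis, was at 324 and 283 CPM in WT, while Pld6 KO had 401 and 439 CPM and Dnmt3l KO 458 and 504 CPM. The groups did not overlap. By edgeR, Pld6 KO differed from WT by 0.47 on the log2 scale (SE 0.215, FDR 0.543) and Dnmt3l KO by 0.67 (SE 0.215, FDR 0.082). Chek1, the kinase downstream of ATR, was at 68.9 and 76.3 CPM in WT, 65.1 and 82.5 CPM where Pld6 was lost, and 79.6 and 110.4 CPM where Dnmt3l was lost, with log2 differences of 0.03 and 0.39 (FDR 0.977 and 0.301 by edgeR). Chek2, the kinase downstream of ATM, was at 16.9 to 22.5 CPM in all 6 libraries and the groups overlapped, with log2 differences of -0.06 and -0.09. The 95% intervals of Chek2, from -0.66 to 0.54 for Pld6 KO and from -0.70 to 0.51 for Dnmt3l KO, excluded a 2-fold change.

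Among the p53 family genes at L/Z, Trp53 was at 55.9 and 57.6 CPM in WT, 71.1 and 58.7 CPM in Pld6 KO and only 33.4 and 47.1 CPM in Dnmt3l KO. The Dnmt3l KO libraries were the lowest, and none of the 3 groups overlapped. Against WT, edgeR gave a log2 difference of 0.19 for Pld6 KO (SE 0.237, FDR 0.826) and of -0.49 for Dnmt3l KO (SE 0.239, 95% interval -1.01 to 0.04, FDR 0.217). Without Dnmt3l KO replicate 1 the latter was -0.29, and without replicate 2 it was -0.76. Dnmt3l KO against Pld6 KO gave -0.68 (SE 0.24, FDR 0.204 by edgeR). Trp63 was at 0.847 and 2.38 CPM in WT, and at 2.76, 4.02, 3.4 and 2.08 CPM in the 2 Pld6 KO and the 2 Dnmt3l KO libraries. Its log2 differences from WT of 1.08 (SE 0.604, FDR 0.601) and 0.72 (SE 0.619, FDR 0.485) by edgeR had intervals that reached from -0.25 to 2.41 and from -0.65 to 2.08, so neither a 2-fold rise nor its absence could be shown at this depth. Without WT replicate 1 they were 0.52 and 0.15, and without WT replicate 2 they were 2.00 and 1.64.

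The 3 genes read as p53 output did not move in 1 direction. Mdm2 was at 107 and 131 CPM in WT, and at 124, 152, 152 and 155 CPM in the 2 Pld6 KO and the 2 Dnmt3l KO libraries, with log2 differences of 0.22 and 0.37 (FDR 0.768 and 0.274 by edgeR). Cdkn1a, which encodes the cyclin-dependent kinase inhibitor p21, was at 5.84 and 6.63 CPM in WT, with 4.07 and 3.94 CPM for Pld6 KO and 1.6 and 5.73 CPM for Dnmt3l KO. Both mutants lay below WT, by -0.64 (SE 0.521) and -0.68 (SE 0.521) on the log2 scale, with FDR 0.723 and 0.425 by edgeR. The lowest Cdkn1a library held 8 counts, and without the other Dnmt3l KO library the difference was -1.96, and without that library -0.14. Bax, a pro-apoptotic member of the BCL2 family, was at 83.8 and 116 CPM in WT, with 64.3 and 82.6 CPM for Pld6 KO and 41.8 and 79.6 CPM for Dnmt3l KO, so that all 4 mutant libraries lay below both WT libraries. The log2 differences were -0.44 (SE 0.301, FDR 0.671) and -0.70 (SE 0.303, FDR 0.165) by edgeR. The Pld6 KO value ranged from -0.66 without WT replicate 1 to -0.19 without WT replicate 2, and the Dnmt3l KO value from -1.26 without Dnmt3l KO replicate 2 to -0.34 without replicate 1.

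**Figure D3:**
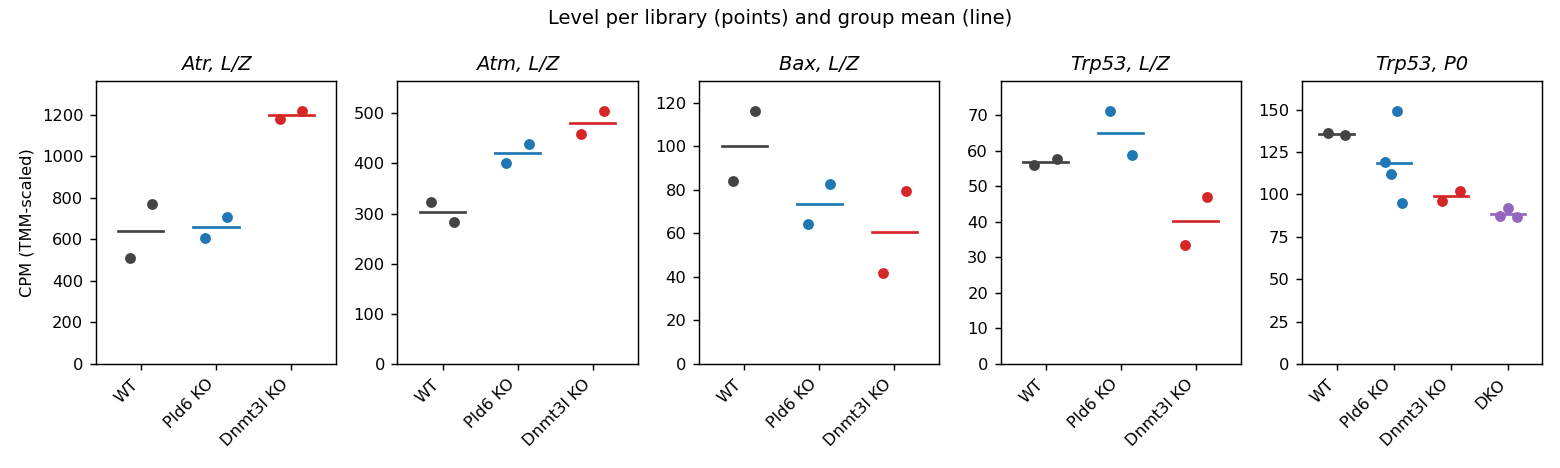
CPM per library (points) and group mean (line) of Atr, Atm, Bax and Trp53 in L/Z spermatocytes and of Trp53 in P0 testes, on axes that start at 0. Atr is highest in the 2 Dnmt3l KO libraries, and Trp53 at P0 is at 86.6 to 91.9 CPM in DKO against 135 and 136 CPM in WT.

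Groups that do not overlap were common across the L/Z table, in which each group had 2 libraries. CPM of Pld6 KO and WT did not overlap for 5 of 9 members, against 42.8% of all tested genes, and those of Dnmt3l KO and WT for 7 of 9, against 55.7%. The 9 members had a median log2 difference of 0.04 for Pld6 KO and 0.37 for Dnmt3l KO, where the medians of all genes were 0.00 and -0.04.

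The direction of several L/Z differences ran with the GC content of the transcripts. Atr (40.8% GC), Chek1 (41%) and Atm (42.6%) had AT-rich transcripts and values above WT in Dnmt3l KO, whereas Bax (63.5%), Cdkn1a (54.4%) and Trp53 (53.3%) had GC-rich transcripts and values below WT. Across all genes, the deviation of a library from the mean of the 6 correlated with GC content at a Spearman rho of -0.261 and -0.434 for Dnmt3l KO, 0.346 and 0.337 for WT, and 0.192 and -0.221 for Pld6 KO, which describes the libraries over genes that are not independent. Once GC content and transcript length were taken up as an offset per library, the difference of Dnmt3l KO from WT was 0.39 for Atr, 0.26 for Atm, -0.03 for Chek1, -0.03 for Bax, -0.41 for Cdkn1a and -0.27 for Trp53, with FDR of 0.448 or more for each in edgeR. In Pld6 KO the same offset gave -0.01 for Atm and 0.15 for Bax. Whether the GC trend comes from the libraries or from the genotypes cannot be told apart here, since it runs with the groups.

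**Figure D4:**
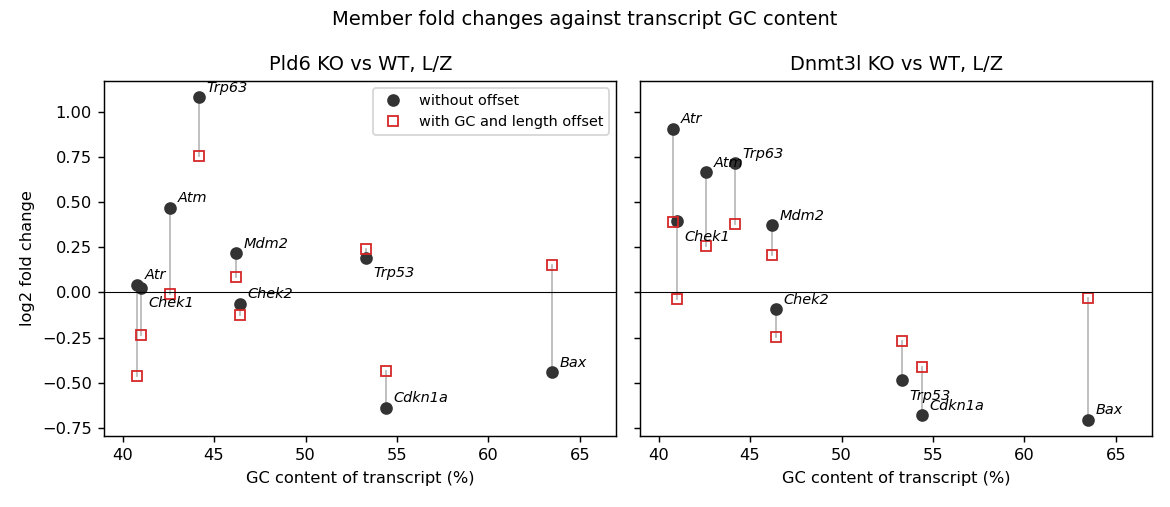
Log2 fold change of each tested member in Pld6 KO (left) and Dnmt3l KO (right) against WT at L/Z, plotted against the GC content of its longest annotated transcript, without (circles) and with (squares) that offset. In Dnmt3l KO the values run from 0.91 for Atr at 40.8% GC to -0.70 for Bax at 63.5% GC, and with the offset these become 0.39 and -0.03.

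In P0 testes, Trp53 was the member that differed most between genotypes. It was at 136 and 135 CPM in WT, 119, 112, 149 and 94.7 CPM in Pld6 KO, while Dnmt3l KO had 96.2 and 102 CPM and DKO 87.1, 91.9 and 86.6 CPM. The group means were 135 ± 0.306 (SD, n = 2), 119 ± 22.5 (n = 4), 99 ± 4.01 (n = 2) and 88.5 ± 2.9 CPM (n = 3). All 5 libraries without Dnmt3l lay below WT and below 3 of 4 Pld6 KO libraries, and Pld6 KO replicate 4 lay among them. The log2 difference from WT was -0.61 in DKO (SE 0.173, 95% interval -0.98 to -0.24, FDR 0.392 by edgeR), -0.45 in Dnmt3l KO (SE 0.192, FDR 0.352) and -0.19 in Pld6 KO (SE 0.165, FDR 0.97). These comparisons share their 2 WT libraries. DKO against Pld6 KO gave -0.42 (SE 0.148, FDR 0.79 by edgeR), and the departure of DKO from the sum of the single effects was 0.03 (SE 0.241, FDR 0.976).

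The Trp53 difference of DKO kept its size in the other fits, from -0.66 to -0.60 over 9 other settings and from -0.64 to -0.60 when any of the 5 libraries was left out, and its lowest FDR was 0.0975, with the compared groups fitted alone. The GC and length offset gave -0.66 in DKO and -0.40 in Dnmt3l KO. Summed Sertoli cell markers were also highest in WT, at 4725 and 4525 CPM, against 3061 to 4132 CPM over the 9 mutant libraries, and their part in the Trp53 value was not tested. The Trp53 level of DKO was 1.53-fold lower than that of WT. In the same comparison, the textbook p53 targets Mdm2 (log2 difference 0.02, 95% interval -0.35 to 0.39), Cdkn1a (0.02, -0.68 to 0.72) and Bax (0.00, -0.41 to 0.42) had intervals around 0 that excluded a 2-fold change. That bar is wider than the Trp53 difference of -0.61, which lay inside the interval of Cdkn1a and outside those of Mdm2 and Bax. Whether the targets followed Trp53 was not tested.

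For the kinase genes at P0, Atr was at 91.3 and 83.2 CPM in WT, 75 to 95.1 CPM over 4 Pld6 KO libraries, and 98.8, 87.8 and 100.2 CPM in DKO, whereas Dnmt3l KO had 133 and 102 CPM. Dnmt3l KO lay above WT by 0.43 on the log2 scale (SE 0.181, FDR 0.349 by edgeR), and without Dnmt3l KO replicate 1, the library with late germ cell markers, the difference was 0.22. Both Dnmt3l KO libraries also had the lowest correlation of deviation with GC content at P0 (rho -0.385 and -0.388, against -0.061 to 0.354 elsewhere), and with the GC and length offset the difference of Atr was 0.44. Atm was at 104 and 111 CPM in WT, 70.8 to 108 CPM over 4 Pld6 KO libraries, 108 and 91.1 CPM where Dnmt3l alone was lost, and 101, 126 and 135 CPM in DKO. DKO exceeded Pld6 KO by 0.48 (SE 0.157, FDR 0.79 by edgeR) although the groups overlapped. The Atm value in DKO departed from the sum of the single effects by 0.60 (SE 0.261, FDR 0.445 by edgeR).

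Chek1 ranged from 27.9 to 64 CPM over the 11 P0 libraries, with its highest values in Dnmt3l KO replicate 1 and in Pld6 KO replicate 1 (61.9 CPM). Chek2 was at 20.6 and 18.3 CPM in WT, 17.7 to 28.6 CPM for Pld6 KO, 25.6 and 25.2 CPM for Dnmt3l KO and 14.9 to 22.2 CPM for DKO. Their log2 differences from WT ranged from -0.30 (Chek1 in DKO) to 0.38 (Chek2 in Dnmt3l KO), and no FDR was below 0.524 in edgeR. All 6 intervals of these 2 genes lay within 2-fold.

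Trp63, which is expressed in prospermatogonia, was at 3.31 and 4.53 CPM in WT, 1.32, 4.85, 3.6 and 6.44 CPM in Pld6 KO, and 3.86 to 5.01 CPM over the 5 libraries without Dnmt3l. Its lowest value was that of Pld6 KO replicate 1, the library with the lowest prospermatogonia markers, which also had the highest Cdkn1a (8.51 CPM, against 3.92 to 6.51 CPM in the other 10 libraries) and the lowest Mdm2 (47 CPM, against 57 to 74.6 CPM). The log2 differences of Trp63 from WT were 0.04 (Pld6 KO), 0.09 (Dnmt3l KO) and 0.22 (DKO), with FDR of 0.945 or more in edgeR. Mdm2, Cdkn1a and Bax differed from WT by -0.23 to 0.09 in Pld6 KO and by -0.11 to 0.07 in Dnmt3l KO, with no FDR below 0.818 in the latter. Bax spanned 28.2 to 44.3 CPM over the 11 libraries, with both ends in mutant libraries.

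At P0, CPM of the groups did not overlap for 0 of 9 members between Pld6 KO and WT, against 11.5% of all tested genes, for 3 of 9 between Dnmt3l KO and WT (Trp53, Atr and Chek2), against 49.6%, and for 2 of 9 between DKO and WT (Trp53 and Chek1), against 29.0%. The effects of each mutation at L/Z and at P0 were also set against each other in a fit of both stages, in which no member was called and the background was 0.0121% for Pld6 KO and 0.665% for Dnmt3l KO. The lowest FDR was that of Atm, whose log2 difference from WT was higher at L/Z than at P0 by 0.75 in Pld6 KO (SE 0.279, FDR 0.444 by edgeR) and by 0.74 in Dnmt3l KO (SE 0.3, FDR 0.225).

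Other genes of the pathway were read from 6 lists that together held 118 genes besides the members, of which 117 were tested at each stage. In Dnmt3l KO L/Z spermatocytes, 8 of 117 (6.84%) were called and all 8 were higher than in WT, where 3.89% of all tested genes were called higher. They included 3 of 7 meiotic checkpoint genes (Hormad1, Hormad2 and Dmc1), 1 of 28 damage signalling genes (Mdc1) and 1 of 20 cell cycle effectors (Ccne2). From the list of p53 targets, 2 of 28 were called (Rrm2b and Ddb2). Whether p53 acts on them in these cells was not tested. None of 15 p53 regulators was called, nor was any of the 117 in Pld6 KO at L/Z (12 at an unadjusted p under 0.05, where 9.17% of all genes were), in Dnmt3l KO against Pld6 KO, or in any comparison at P0 by edgeR. The genes named in the rest of this paragraph were chosen after their values were seen. With DESeq2's Wald test, 1 gene was called in Pld6 KO at L/Z (Rrm2b, 1.16 on the log2 scale), 5 in Dnmt3l KO against Pld6 KO at L/Z (all higher, among them Dmc1, Hormad1, Spo11 and Ddb2) and 3 in Dnmt3l KO against WT at P0 (Hormad1, 1.56, and Hipk2 and Pmaip1, which were lower at -1.63 and -2.12). Over all genes the Wald test called 90 of 14662, 355 of 14662 and 71 of 15901 in these comparisons, where edgeR called 33, 7 and 0. Hipk2, a kinase of p53, also exceeded Dnmt3l KO in DKO by 1.99 in the Wald test.

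**Figure D5:**
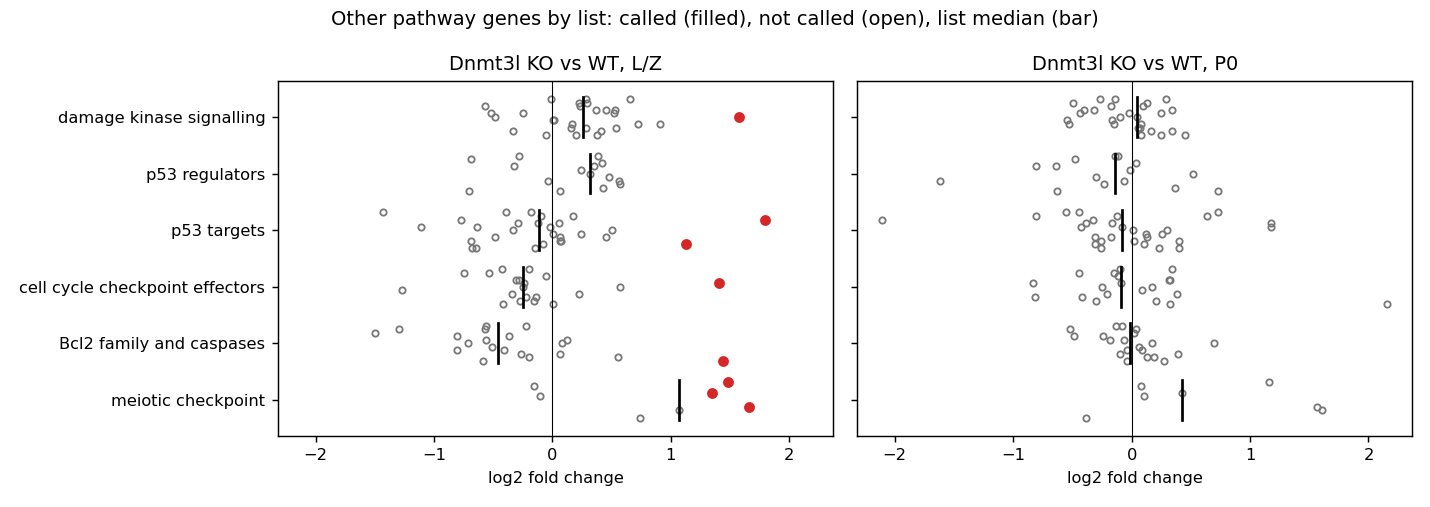
Log2 fold change of the other pathway genes in Dnmt3l KO against WT at L/Z (left) and P0 (right), by list, with called genes filled and the median of each list as a bar. The 8 called genes are all above 0 at L/Z, while the medians of the lists range from -0.46 for the BCL2 family and caspases to 1.07 for the 7 meiotic checkpoint genes, and none is called at P0.

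Mdc1, the scaffold that binds phosphorylated H2AX at breaks, was at 259 and 371 CPM in WT, 544 and 622 CPM where Pld6 was lost, and 1049 and 828 CPM where Dnmt3l was lost, a log2 difference of 1.57 for Dnmt3l KO (SE 0.261, FDR 0.0113 by edgeR). Rrm2b, the p53-inducible subunit of ribonucleotide reductase, was at 10.3 and 11.7 CPM in WT, 24 and 24.9 CPM for Pld6 KO, and 32.4 and 43.8 CPM for Dnmt3l KO, with a log2 difference of 1.79 (SE 0.269, FDR 0.0076 by edgeR). For both genes the 3 groups were ordered without overlap. Over all tested genes, Pld6 KO and WT did not overlap for 42.8%, and Dnmt3l KO and WT for 55.7%. The share with all 3 groups ordered was not computed.

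Hormad1 and Hormad2, which mark unsynapsed chromosome axes and recruit ATR activity to them, rose by 1.66 (SE 0.389, FDR 0.0317) and 1.48 (SE 0.311, FDR 0.0234) by edgeR. Dmc1, the meiotic strand-exchange recombinase, rose by 1.35 (SE 0.298, FDR 0.0272). Hormad1 and Dmc1 are themselves among the 10 L/Z spermatocyte markers whose sum was highest in Dnmt3l KO. Ccne2, which encodes cyclin E2, was at 49.1 and 56.1 CPM in WT, 84.5 and 109 CPM for Pld6 KO, and 134 and 145 CPM for Dnmt3l KO, a rise of 1.41 (SE 0.217, FDR 0.00871 by edgeR). Ddb2, a damage recognition factor of nucleotide excision repair, rose by 1.13 (SE 0.236, FDR 0.0234 by edgeR) from 111 and 167 CPM to 302 and 307 CPM.

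With the GC and length offset, 5 pathway genes were called, where 279 of all 14538 genes were. The 5 included Mdc1, Rrm2b and Hormad2, at log2 differences of 1.60, 1.28 and 1.24, while the p53 target Ccng1 was lower at -1.12. Ccne2, Hormad1, Dmc1 and Ddb2, which were called without the offset, were not called with it. The calls without the offset depended on single libraries, and leaving out a library moved the number of calls over all genes as well. Without WT replicate 1 the difference was 1.71 for Rrm2b and 1.32 for Ccne2, and without WT replicate 2 it was 1.89 and 1.51. Mdc1, Hormad1, Hormad2, Dmc1 and Ddb2 were not called without WT replicate 1. Their differences without WT replicate 2 were 1.86, 2.33, 2.005, 1.91 and 1.45. None of the genes in these fits was called without Dnmt3l KO replicate 1. The medians of the lists at L/Z in Dnmt3l KO were 0.26 for damage signalling, 0.31 for p53 regulators, -0.11 for p53 targets, -0.24 for cell cycle effectors, -0.46 for the BCL2 family and caspases and 1.07 for the meiotic checkpoint, beside -0.04 over all genes. Of the 28 listed p53 targets tested, 11 were above 0 and 17 below, so that the list as a group lay on both sides of WT. At an unadjusted p under 0.05 by edgeR, 9 of the 28 differed from WT, where 26.7% of all genes did. Of these 9, 2 were higher than WT and the rest were lower. The share of higher genes among all genes under that p was not computed. The part of the GC trend in these directions was not tested.

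The genes whose pattern was most like that of Cdkn1a were ranked by Pearson's r of log2 CPM, leaving out those whose mean count was under 50. Over the 6 L/Z libraries they were Rpl4 and Nit2 (r = 0.993) and Rps13 (r = 0.992) of 11030 genes, and over the 11 P0 libraries Hsf1 (r = 0.883), Gspt1 (r = 0.875) and Btg2 (r = 0.861) of 12546 genes, of which Btg2 is on the list of p53 targets. Among the members, Bax was nearest to Cdkn1a at L/Z (r = 0.924), and at P0 Chek1 (r = 0.6), while Trp63 ran opposite (r = -0.856). The points of each correlation share their libraries, their depth and the GC trend described above.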

How the data were processed

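PolyA(+) RNA of 17 mouse libraries was sequenced after stranded library preparation. The authors aligned reads with TopHat to mm10 and quantified RefSeq genes with Cuffdiff, and the versions were not given in the sources used here. Their 2 deposited tables, 1 per stage, hold estimated counts per gene and library (97.8% and 97.7% whole numbers) and FPKM, scaled by the authors to transcript length and library size. Replicates were numbered from 0 in the tables and from 1 in the labels, and were matched in that order. Genes whose quantification status was not OK in some library (6 and 2) were left out of the tests. Counts were rounded, filtered with filterByExpr, scaled by TMM and tested with edgeR 4.0.16 (glmQLFit, glmQLFTest, R 4.3.3), fitting each stage over all its groups and adjusting p-values over all genes. P-values measure the spread between these libraries. Alternatives used DESeq2 1.42.0, limma 3.58.1 on log2(FPKM + 1) and log2(FPKM + 0.1), other filters, a 45S RNA term, the replicate number as a block and a loess offset (span 0.3) for GC content and length of the longest GENCODE transcript, known for 98.4% of genes. Positions come from GRCm38.p6. The fits were checked on simulated data. The members and gene lists were chosen with earlier results of these data known. Named were all members in every comparison, called list genes without overlap of groups (at most 10), the 3 genes nearest to Cdkn1a, and Pld6 and Dnmt3l. The values of 1 gene that this rule named are not reported here.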

Additional observations from a re-analysis of the deposited data

Results flagged for a closer look

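The effect of the Dnmt3l mutation differed between L/Z spermatocytes and P0 testes for 2 of the other pathway genes, by an interaction test in the fit of both stages (edgeR, no fold threshold). For Mdc1, the log2 difference from WT was higher at L/Z than at P0 by 2.03 (SE 0.397, FDR 0.0393), being 1.57 at L/Z and -0.49 at P0. For Rrm2b it was higher by 1.65 (SE 0.346, FDR 0.0456), being 1.79 at L/Z and 0.12 at P0. Of 118 pathway genes tested, these 2 (1.69%) were called, where 0.665% of all genes were. The stages differ in tissue and read type. Fits without 1 of the WT or Dnmt3l KO libraries left 1 library in a group. Rrm2b was called in none of those fits, and Mdc1 only without Dnmt3l KO replicate 2 at L/Z. Fewer genes of the whole set were called in most of those fits too. Without Dnmt3l KO replicate 2 at L/Z the value of Mdc1 was 2.16. No library of P0 Pld6 KO, the group of 4, stood far from the others for any of the 10 members by Dixon's test.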

How the results depend on the processing

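No member was called under any alternative, except that without WT replicate 2 the number of members called in Dnmt3l KO against WT at L/Z was 1 (Atr), so that it ranged from 0 to 1 when a library was left out. Over the members' comparisons with WT, 582 of 646 alternative values kept their direction and their side of the FDR threshold, 56 changed sign and 8 passed an FDR of 0.05. Those 8 were Atr in Dnmt3l KO at L/Z under 6 alternatives and Atm under 2. Of 364 alternative counts of calls, 333 stayed within 1.5 times the reported count. Most of the reported counts were 0 and counted as unchanged where none was called again, so this number says little about robustness. The causes of the changes were not tested.

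For the other pathway genes, DESeq2's Wald test gave 1 call in Pld6 KO at L/Z, 5 in Dnmt3l KO against Pld6 KO at L/Z, 3 in Dnmt3l KO at P0, 1 in DKO against Dnmt3l KO, 1 in the departure from additivity, and 1 (Pld6) and 7 (Dnmt3l) in the difference between stages. Over all genes that test called, in the same order, 90 and 355 of 14662, 71, 258 and 54 of 15901, and 45 and 699 of 16547. Without a filter there were 3 calls in Dnmt3l KO against Pld6 KO at L/Z (193 of all 19905 genes) and 1 in DKO against Dnmt3l KO (91 of 20974). With the compared groups alone there were 3 (181 of 13915) and 1 (109 of 15465). The GC and length offset left 5 calls in Dnmt3l KO at L/Z (279 of 14538). For the difference between stages of Dnmt3l KO there were 1 call with limma on log2(FPKM + 0.1), 1 with the replicate block, 0 with the 45S RNA term and 0 with the GC and length offset. Over all genes these settings called 121, 28 and 56 of 16547 and 51 of 16391. Leaving out a library moved the number of pathway genes called in Dnmt3l KO at L/Z and in its difference between stages. The other L/Z comparisons moved less. The number called over all genes moved as well. Without Pld6 KO replicate 3 at P0, Hipk2 was called in the departure from additivity (2.45), where 16 of all 15870 genes were.

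Replicate numbers did not pair the samples of all groups: at L/Z the deviations of same-numbered libraries correlated at 0.485 between WT and Pld6 KO, and at -0.144 and -0.135 between Dnmt3l KO and these groups, and at P0 from -0.332 to 0.271. With the replicate block, no member was called, and 10 pathway genes were called in Dnmt3l KO at L/Z, where 912 of all 14662 genes were. With the numbers of Dnmt3l KO crossed, an alternative chosen after seeing the data, the block gave 13 calls against WT and 7 against Pld6 KO. Over all genes it then called 1282 and 516 of 14662. The block turned Trp63 in Pld6 KO at P0 to -0.32, Bax in Pld6 KO at P0 to 0.028 and Mdm2 in DKO to -0.065.

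The GC and length offset turned the sign at L/Z of Atm (-0.01), Atr (-0.461), Chek1 (-0.233) and Bax (0.152) in Pld6 KO and of Chek1 (-0.034) in Dnmt3l KO, and at P0 of Atr (0.013) in Pld6 KO, Chek1 (-0.089) in Dnmt3l KO, and Atm (-0.003), Atr (-0.029), Cdkn1a (-0.041) and Bax (-0.157) in DKO. With the compared groups alone, Chek1 in Pld6 KO at L/Z was -0.003. With limma, Trp63 in Pld6 KO at P0 was -0.074 and -0.224 with a pseudocount of 1 and 0.1, and Bax in Dnmt3l KO at P0 was -0.021 with both. Bax in DKO, at 0.002, became -0.011 with DESeq2 size factors, -0.016 without a filter, -0.01 with DESeq2's Wald test and with the compared groups alone, and -0.033 and -0.034 with limma. Chek2 in DKO was 0.003 with a mean of at least 50 counts.

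Leaving out a library moved these log2 differences across 0. At L/Z, Pld6 KO gave -0.229 to 0.375 for Atr, -0.159 to 0.188 for Chek1 and -0.26 to 0.118 for Chek2, and Dnmt3l KO gave -0.248 to 0.089 for Chek2. At P0, Pld6 KO gave -0.267 to 0.333 for Trp63, -0.083 to 0.037 for Atr, -0.443 to 0.004 for Chek1, -0.142 to 0.236 for Cdkn1a and -0.129 to 0.033 for Bax. Dnmt3l KO gave -0.154 to 0.325 for Trp63, -0.237 to 0.466 for Chek1 and -0.219 to 0.286 for Bax. DKO gave -0.019 to 0.46 for Trp63, -0.143 to 0.147 for Chek2, -0.056 to 0.068 for Cdkn1a, -0.114 to 0.138 for Mdm2 and -0.048 to 0.076 for Bax. Depth limits Trp73, Trp63 and Cdkn1a most, whose lowest libraries held 2, 10 and 8 counts. Where leaving out a library left a group with 1, that library was assumed to vary like the other groups.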
